A study of Mus musculus with 6 samples.

Results

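Histone genes were followed in oligodendrocytes, the cells that make central myelin, taken from brains of adult mice with and without a deletion of Qk, the gene of the RNA-binding protein quaking. Members were chosen by symbol alone. Genes whose symbol starts with Hist1h, Hist2h, Hist3h or Hist4h formed the replication-dependent class, with 71 genes, and genes whose symbol starts with H2af or H3f3 formed the replacement class, with 17. Together they are 88 of the 46983 annotated features in the deposited table.

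Replication-dependent histone genes supply the histones that package new DNA, lie in clusters and are transcribed mostly in S phase. Most of their mRNAs are not polyadenylated: they end just after a short stem-loop that the stem-loop binding protein holds, and a U7 ribonucleoprotein guides the cut. Replacement genes lie outside these clusters and give spliced, polyadenylated mRNAs in most cases, and their variants (H3.3 from H3f3a and H3f3b, H2A.Z from H2afz and H2afv, macroH2A from H2afy and H2afy2) are put into chromatin at any time of the cell cycle. Mature oligodendrocytes no longer divide, while their precursors do.

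The 6 libraries came from FvB/C57BL6 hybrid mice. The 3 Qk-KO libraries are from Plp-CreERT2;QKLoxP/LoxP mice, in which a tamoxifen-inducible Cre under the Plp promoter, active in oligodendrocyte lineage cells, deletes a floxed part of Qk, and the 3 control libraries (WT) are labelled wild type. Mice of both groups received tamoxifen at 8 weeks of age, brains were taken 4 days later, and total RNA of the fresh, uncultured cells was sequenced. The labels do not say whether controls carried Cre or floxed alleles, nor that every library comes from its own mouse, and p-values therefore measure how far these libraries differ among themselves. Per-library values are the authors' regularized log2 values, scaled by library and shrunk toward the mean of the gene when it has few reads. Changes are Qk-KO minus WT with limma's standard error, n = 3 libraries per group, and a gene is called where the Benjamini-Hochberg adjusted p over the 15153 tested features is below 0.05.

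Of the replication-dependent members, 67 reached the mean normalized count of 20 needed for the test, 3 fell below it (Hist1h1t, Hist1h2ba and a noncoding feature named Hist2h2bb), and Hist1h2aa had no read. Among the replacement members 11 were tested, the pseudogenes H2af-ps and H3f3a-ps1 fell below the minimum, and H2afb1, H2afb2, H2afb3 and H2afy3 had no read. Of the tested replacement members, H3f3c and H3f3a-ps2 are annotated as processed pseudogenes and H3f3aos as an antisense RNA to H3f3a, which leaves 8 protein-coding genes.

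The libraries were unlike in content. Ribosomal RNA features held 59.8% to 64.8% of the signal in the WT libraries and Qk-KO replicate 1, but only 2.23% and 1.88% in the remaining Qk-KO replicates 2 and 3. Estimated reads outside them numbered 8700000 to 13100000 in the former 4 libraries and 77100000 and 70000000 in the latter 2. Library type, used below as a model term, marks only these latter 2 and was set from ribosomal content, not from a label. With that term the Qk-KO change is that of Qk-KO replicate 1 against the WT mean. The gene-level value of Qk itself did not pass the test (0.21 ± 0.25, limma adjusted p = 0.567), a value that cannot show the loss of single exons and so checks nothing about the labels. All 10 oligodendrocyte markers listed were detected, and their summed level was 25738 to 31561 CPM (a share of the library scaled to a common total, with ribosomal features left out) in WT and 32679 to 41700 in Qk-KO. The astrocyte list summed to 6956 to 8177 CPM in WT and 1046 to 1631 in Qk-KO, the microglia list to 372 to 606 and 911 to 4027, the endothelial list to 1699 to 2384 and 965 to 1249, and the neuron list to 79.5 to 81.0 and 97.1 to 212.6. No listed marker of any type was without a read. Fewer cells of a type and less RNA per cell cannot be told apart in such samples, and the part of these markers in the histone results was not tested.

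The sequence that sets the classes apart is the stem-loop at the 3′ end of the mRNA. It was searched, from the stop codon to the annotated transcript end, as the 16-base histone stem-loop motif, whose arms may vary within purines and within pyrimidines. The stretches below are shown because they belong to 6 of the 7 replication-dependent genes called higher in Qk-KO and to the single replacement gene that held the motif. They are from GENCODE M21 transcripts (build mm10), 5′ to 3′ on the mRNA strand, with the stem-loop in capitals.
Hist3h2ba: acccaaaGGCTCTTTTCAGAGCCaccttcc
Hist3h2a: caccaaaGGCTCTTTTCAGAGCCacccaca
Hist1h2be: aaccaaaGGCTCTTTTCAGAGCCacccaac
Hist1h1c: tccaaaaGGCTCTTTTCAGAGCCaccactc
Hist2h2aa2: ctaaaaaGGCTCTTTTCAGAGCCacccact
Hist1h4i: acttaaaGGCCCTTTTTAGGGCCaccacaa
H2afx: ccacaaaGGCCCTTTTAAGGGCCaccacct

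The motif occurred in 79 of 20841 genes with at least 50 annotated bases after the stop codon (0.379%), and 47 of the 79 were members. Its commonest form, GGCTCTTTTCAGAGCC, was found in 26 members and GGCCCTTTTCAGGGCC in 7. Hist1h4i had the rarer form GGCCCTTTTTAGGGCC, shared with Hist2h4. Of the 7 called replication-dependent genes only Hist1h2bc, annotated with 2 exons, had no motif between its stop codon and its annotated ends. In many genes the annotation runs on past the stem-loop: by 840 bases in Hist1h1c, 1861 in Hist1h2be, 1643 in Hist3h2a, 330 in Hist1h4i and 169 in Hist3h2ba, but by 35 in Hist2h2aa2. H2afx, which encodes the H2A variant phosphorylated at DNA breaks, had the stem-loop and 822 annotated bases beyond it.

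Replacement genes were higher in Qk-KO in 3 of 11 tested members, H2afj, H2afy and H3f3a, and none was called lower. Over all tested features 28.6% were called, 13.8% higher and 14.8% lower. The median change of the 11 members was 0.35 (from -0.27 to 1.22), against 0.03 over all tested features. The values of 6 members lay above WT in every Qk-KO library, where 24.5% of all features did so, and those of H2afv lay below, as for 21.8% of all features (46.3% in either direction). In the authors' deposited table the same 3 members passed an adjusted p of 0.05, where 16.4% of the features tested here passed as higher.

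H2afj (ENSMUSG00000060032.6, chromosome 6, 136808244 to 136810074, plus strand, mm10) encodes H2A.J, an H2A variant known to build up in senescent cells. It read 9.31, 9.83 and 9.31 in WT replicates 1 to 3, against 10.63, 10.65 and 10.82 in Qk-KO replicates 1 to 3. The Qk-KO libraries lay close together and all above WT. The change was 1.22 ± 0.16 (limma adjusted p = 0.0015), a 2.33-fold rise on this scale, and in Qk-KO replicate 1 alone against WT, which have like ribosomal content, it was 1.15 (adjusted p = 0.016). That contrast takes the spread of a single Qk-KO library to equal the WT spread.

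H2afy (ENSMUSG00000015937.14, chromosome 13, 56073619 to 56136361, minus strand) encodes macroH2A1, a large H2A variant associated with repressed chromatin and one whose splice forms differ between cell types. It read 9.78, 9.89 and 9.89 in WT, against 10.58, 10.54 and 10.66 in Qk-KO, with the smallest scatter of the 3 called genes. The change was 0.74 ± 0.10 (limma adjusted p = 0.0017), or 0.73 in Qk-KO replicate 1 alone (adjusted p = 0.015). A single value per gene does not separate its splice forms. H2afy2, which encodes macroH2A2, was lower in level, at 7.24, 7.13 and 7.00 in WT, against 7.47, 7.56 and 7.50 in Qk-KO. Its groups did not overlap, but at 0.39 ± 0.14 it missed the threshold (adjusted p = 0.073).

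The H3.3 genes H3f3a and H3f3b encode the same protein. H3f3a (chromosome 1, 180800832 to 180813943, minus strand) read 11.26, 11.37 and 11.12 in WT, against 11.57, 11.75 and 11.82 in Qk-KO. All Qk-KO libraries lay above WT, and the change was 0.46 ± 0.12 (limma adjusted p = 0.0231). The call was lost in 6 of 16 alternatives, among them Qk-KO replicate 1 alone (0.32, adjusted p = 0.191). H3f3b (chromosome 11, 116021912 to 116027962, minus strand) read 10.85, 10.90 and 12.30 in WT, against 11.44, 11.92 and 12.31 in Qk-KO. WT replicate 3 was as high as the highest Qk-KO library, and the change of 0.54 ± 0.39 was not called (adjusted p = 0.327). Without WT replicate 3 it was 1.01 (adjusted p = 0.0371).

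Of the H2A.Z genes, H2afz read 8.64, 8.81 and 9.32 in WT, against 8.98, 9.15 and 9.55 in Qk-KO. The groups overlapped, and the change of 0.30 ± 0.22 was not called (adjusted p = 0.320). H2afv read 8.46, 8.72 and 8.51 in WT, against 8.40, 8.45 and 8.39 in Qk-KO, just below WT in every library, with a change of -0.15 ± 0.13 (adjusted p = 0.410). H2afx, whose levels were 8.15, 8.32 and 8.76 in WT, against 8.96, 8.46 and 8.39 in Qk-KO, overlapped between the groups (0.19 ± 0.21, adjusted p = 0.528). The 3 features without a protein had changes of 0.35 in H3f3c, which read 6.22, 6.32 and 6.18 in WT, against 6.42, 6.62 and 6.73 in Qk-KO, of 0.24 in H3f3a-ps2 and of -0.27 in H3f3aos, none of them called. H3f3c and H3f3a-ps2 share 73.8% and 82.0% of their 50-base stretches with other genes, so their reads may be those of their parent genes. H3f3aos overlaps H3f3a on the other strand, and since the strandedness of the counting is not given, reads there cannot be told apart. H2afj, H2afy, H2afx and H3f3a each overlap 1 unnamed gene model on the other strand as well. H2afy2 overlaps the genes Aifm2 and Mir5108 on the other strand.

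Replication-dependent genes were higher in Qk-KO in 7 of 67 tested members, and none was called lower. That is a share near the 13.8% of all features called higher, while 14.8% of all features were called lower. The median change was 0.04 (from -0.66 to 1.10), close to the 0.03 of all tested features. In 8 members every Qk-KO library lay above WT, and in none did every one lie below, with 24.5% and 21.8% of all features doing so. In Qk-KO replicate 1 alone against WT, 2 replication-dependent and 2 replacement members were called higher, with 6.17% of all features. Of the 67 members, 7 passed an adjusted p of 0.05 as higher in the authors' deposited table and none as lower. There Hist1h1t, the testis linker histone gene, which was below the minimum for the test here, passed as higher too (log2 fold change 1.79, adjusted p = 0.0367).

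The called genes lie in different clusters and encode 4 of the 5 histone types. The Hist3 cluster on chromosome 11 holds 3 tested members. Each of them lay above WT in every Qk-KO library, as did 24.5% of all features. Hist3h2ba (ENSMUSG00000056895.4, chromosome 11, 58948920 to 58949533, plus strand), an H2B gene, read 6.91, 7.25 and 6.93 in WT, against 8.46, 7.92 and 8.01 in Qk-KO. This was the widest gap among the replication-dependent genes, with a change of 1.10 ± 0.19 (limma adjusted p = 0.0048), or 1.43 in Qk-KO replicate 1 alone (adjusted p = 0.0084). Its H2A neighbour Hist3h2a, which starts 5151 bases downstream of its end (58954685 to 58956830), read 8.79, 9.01 and 9.30 in WT, against 9.74, 9.59 and 9.54 in Qk-KO. Here the Qk-KO libraries lay only slightly above WT replicate 3 and the change was 0.59 ± 0.15 (adjusted p = 0.0233). The call was lost in 5 of 16 alternatives, including Qk-KO replicate 1 alone (0.71, adjusted p = 0.0713) and library type in the model (adjusted p = 0.0641). Hist3h2a overlaps Trim17 on the same strand, so some of its reads could be those of that gene. The pseudogene Hist3h2bb-ps was not called (0.26).

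Hist1h2bc and Hist1h2be are H2B genes of the large Hist1 cluster on chromosome 13. Hist1h2bc (ENSMUSG00000018102.4, 23684199 to 23692908, plus strand) read 9.35, 9.69 and 9.68 in WT, against 10.29, 10.31 and 10.63 in Qk-KO. The groups lay well apart, with a change of 0.84 ± 0.15 (limma adjusted p = 0.0049) and of 0.72 in Qk-KO replicate 1 alone (adjusted p = 0.039). Hist1h2be (23583670 to 23621124, minus strand) read 8.43, 8.02 and 8.62 in WT, against 9.06, 9.36 and 9.48 in Qk-KO. The change was 0.94 ± 0.19 (adjusted p = 0.0083), and 0.71 without a call in Qk-KO replicate 1 alone (adjusted p = 0.109). Its annotated span, with 2 exons, overlaps Hist1h1e on the same strand.

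Hist1h1c (23738808 to 23740367, plus strand), the gene of linker histone H1.2 and the most abundant member of its class, read 10.79, 11.06 and 11.31 in WT, against 11.51, 11.70 and 12.02 in Qk-KO. Qk-KO lay above WT throughout, by 0.69 ± 0.18 (limma adjusted p = 0.0232). The call was lost in 6 of 16 alternatives, among them Qk-KO replicate 1 alone (0.46, adjusted p = 0.181). The next most abundant linker histone gene, Hist1h1e, read 10.40, 10.68 and 10.91 in WT, against 10.41, 10.48 and 10.72 in Qk-KO, with overlapping groups and a change of -0.13 ± 0.16 (adjusted p = 0.559). Linker histone genes thus had changes from -0.66 in Hist1h1b and -0.29 in Hist1h1a, neither called, over 0.26 in Hist1h1d, not called, to the 0.69 of Hist1h1c. H1f0, a polyadenylated linker histone gene of non-dividing cells that lies outside both classes, was not called either (0.05, adjusted p = 0.794), nor was H1fx (-0.19, adjusted p = 0.785).

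Among the H4 genes, Hist1h4i (22040636 to 22041362, minus strand) read 6.61, 6.58 and 7.09 in WT, against 7.74, 7.97 and 7.17 in Qk-KO, where replicate 3 lay just above WT replicate 3. The change was 0.87 ± 0.24 (limma adjusted p = 0.0312), and the call was lost in 9 of 16 alternatives. Hist1h4d, the most abundant H4 gene, read 9.36, 9.56 and 10.01 in WT, against 9.81, 10.16 and 10.20 in Qk-KO. Hist1h4h read 8.29, 8.76 and 9.03 in WT, against 8.81, 9.29 and 9.36 in Qk-KO. Groups overlapped in both, and neither change was called (0.41 and 0.46, adjusted p = 0.138 and 0.155). Every H4 gene encodes the same protein, so these differences are between gene copies.

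In the Hist2 cluster on chromosome 3, Hist2h2aa2 read 8.86, 8.97 and 9.33 in WT, against 9.40, 9.72 and 10.05 in Qk-KO. It was called at 0.67 ± 0.20 (limma adjusted p = 0.0361), a call lost in 8 of 16 alternatives. The gene has a near-identical copy, Hist2h2aa1, 5220 bases away on the other strand, and 100% of the 50-base stretches of each occur in another gene. Hist2h2aa1 read 6.77, 3.90 and 3.94 in WT, against 3.79, 3.14 and 8.70 in Qk-KO, high in 1 library of each group. Reads of the pair could have been split in different ways in different libraries, and the value of either copy is uncertain.

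**Figure D1:**
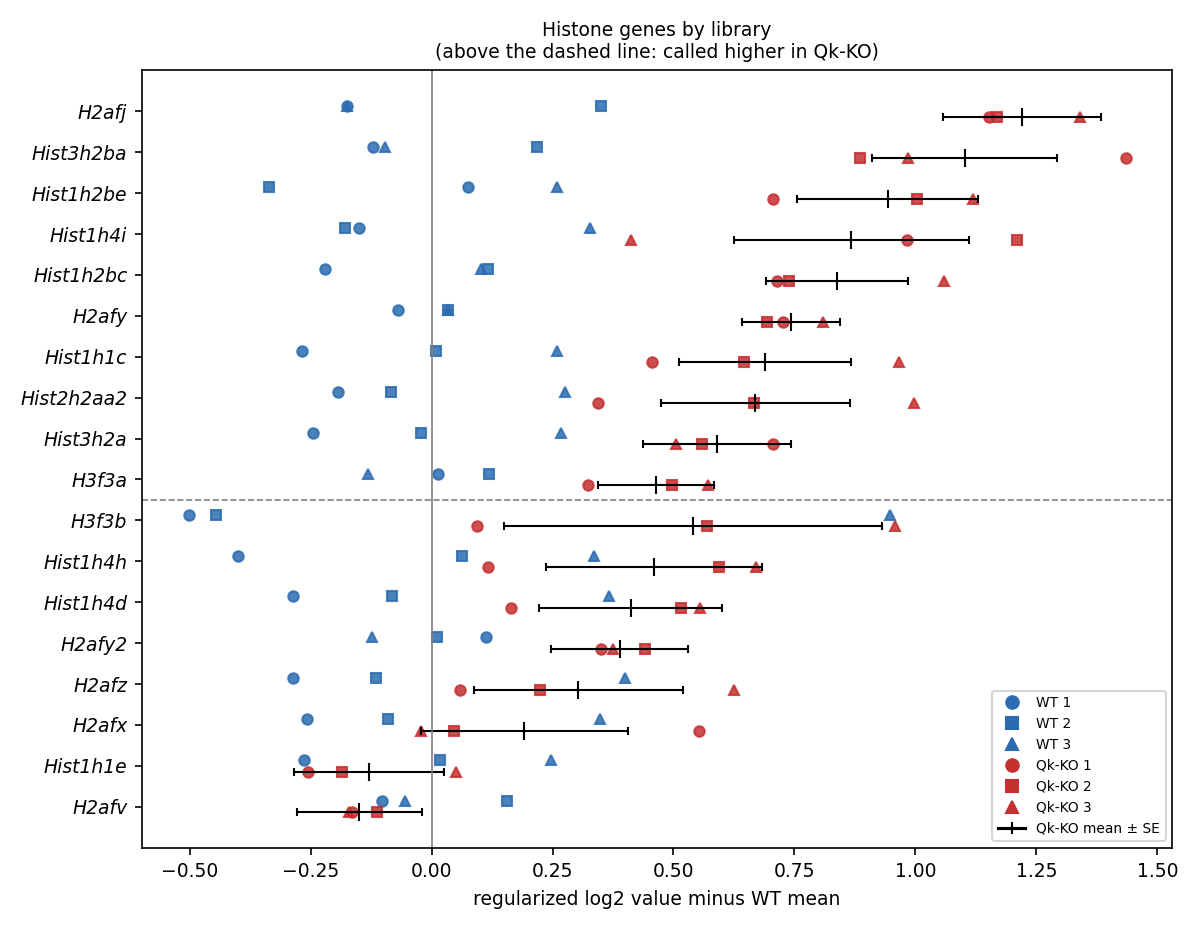
Regularized log2 value minus the WT mean (horizontal axis) for the called histone genes, above the dashed line, and for the other most abundant tested members of each class, below it. Blue points are WT and red points Qk-KO libraries, 1 shape per replicate number, and the black bar is the Qk-KO mean ± SE from limma. H2afj and Hist3h2ba stand farthest from WT (1.22 and 1.10), and H3f3b has 1 WT library, replicate 3, level with the highest Qk-KO library.

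The members that were not called are given by histone type. The 12 H3 genes lay within -0.29 (Hist1h3c) and 0.54 (Hist2h3c2) with a median of 0.04, and Hist1h3a, Hist1h3b, Hist1h3d, Hist1h3e, Hist1h3f, Hist1h3g, Hist1h3h, Hist1h3i, Hist2h3b and Hist2h3c1 lay between. The 17 uncalled H2A genes ran from -0.25 (Hist1h2af) to 0.34 (Hist2h2aa1), and besides these they were Hist1h2ab, Hist1h2ac, Hist1h2ad, Hist1h2ae, Hist1h2ag, Hist1h2ah, Hist1h2ai, Hist1h2aj, Hist1h2ak, Hist1h2al, Hist1h2an, Hist1h2ao, Hist1h2ap, Hist2h2ab and Hist2h2ac. The 15 uncalled H2B genes ran from -0.34 (Hist1h2bm) to 0.64 (Hist1h2br, which was high in WT replicate 3 as well), with Hist1h2bb, Hist1h2bf, Hist1h2bg, Hist1h2bh, Hist1h2bj, Hist1h2bk, Hist1h2bl, Hist1h2bn, Hist1h2bp, Hist1h2bq, Hist2h2be, the protein-coding feature named Hist2h2bb and Hist3h2bb-ps between. The remaining H4 genes, Hist1h4a, Hist1h4b, Hist1h4c, Hist1h4f, Hist1h4j, Hist1h4k, Hist1h4m, Hist1h4n, Hist2h4 and Hist4h4, lay between -0.13 (Hist1h4m) and 0.22 (Hist2h4). Median changes by type were -0.13 for H1, -0.04 for H2A, 0.10 for H2B, 0.04 for H3 and 0.10 for H4, all near the 0.03 of all features. A called gene could lie next to one that was not. Hist4h4 and H2afj are 3828 bases apart on chromosome 6 and had changes of 0.10 and 1.22.

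Set per kilobase of annotated exons, Hist1h1c had the highest level of all members, with 69.1 CPM per kilobase in WT, against 116 in Qk-KO. Hist2h2aa2 followed in WT with 51.1, then H3f3b with 49.8, Hist1h4h with 45.1 and Hist1h1e with 42.6. In Qk-KO these 4 were at 85.1, 68.7, 64.1 and 40.1, so of these group means that of Hist1h1e alone was not higher. The changes of H3f3b and Hist1h4h were not called, and their groups overlapped. H2afj rose from 19.7 to 47.2 CPM per kilobase, close to the 49.8 of H3f3a in Qk-KO, which had 34.8 in WT. Hist1h2be, with its long annotated exons, had 3.76 in WT, against 7.43 in Qk-KO. The order rests on annotated lengths, which run past the stem-loop unequally. They do so by 840 of 1560 bases in Hist1h1c and by 46 of 470 in Hist1h4h. The value of Hist2h2aa2 is also uncertain, since 100% of its 50-base stretches occur in another gene.

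The classes were then compared within each library. The share of each class in their sum does not depend on library scaling, while the CPM sums and normalized sums do. Shrinkage of genes with few reads enters all of them. The 70 replication-dependent members with a read summed to 557, 565 and 866 CPM in WT replicates 1, 2 and 3 and to 683, 881 and 1035 CPM in Qk-KO replicates 1, 2 and 3. The 13 replacement members with a read summed to 366, 381 and 546 CPM in WT, against 505, 651 and 753 CPM in Qk-KO. Both classes were highest in Qk-KO replicate 3, and both were higher in WT replicate 3 than in the other WT libraries, so WT replicate 3 overlapped Qk-KO in each class.

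Replication-dependent genes made up 60.4%, 59.7% and 61.3% of the summed histone signal in WT and 57.5%, 57.5% and 57.9% in Qk-KO. The share was lower in every Qk-KO library than in every WT library. As a log2 ratio of the classes it was 0.61 ± 0.05 in WT and 0.44 ± 0.01 in Qk-KO (SD, n = 3), a difference of -0.17 given without a test, since the members were chosen. Qk-KO replicate 1, with high ribosomal content, had the same ratio (1.35) as Qk-KO replicate 2, with low. The normalized sum of the replication-dependent class was 1.26 times the WT mean in Qk-KO and that of the replacement class 1.43 times. The difference depended on which members entered. It was -0.30 without the members called higher, where WT was at 0.99 ± 0.20 and Qk-KO at 0.69 ± 0.08, and -0.28 without the most abundant member of each class (0.94 ± 0.37 and 0.66 ± 0.11). In both the groups overlapped, so the separation was lost although the difference was larger. It was -0.02 when the median log2 value of the tested members of each class stood in for the sum.

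**Figure D2:**
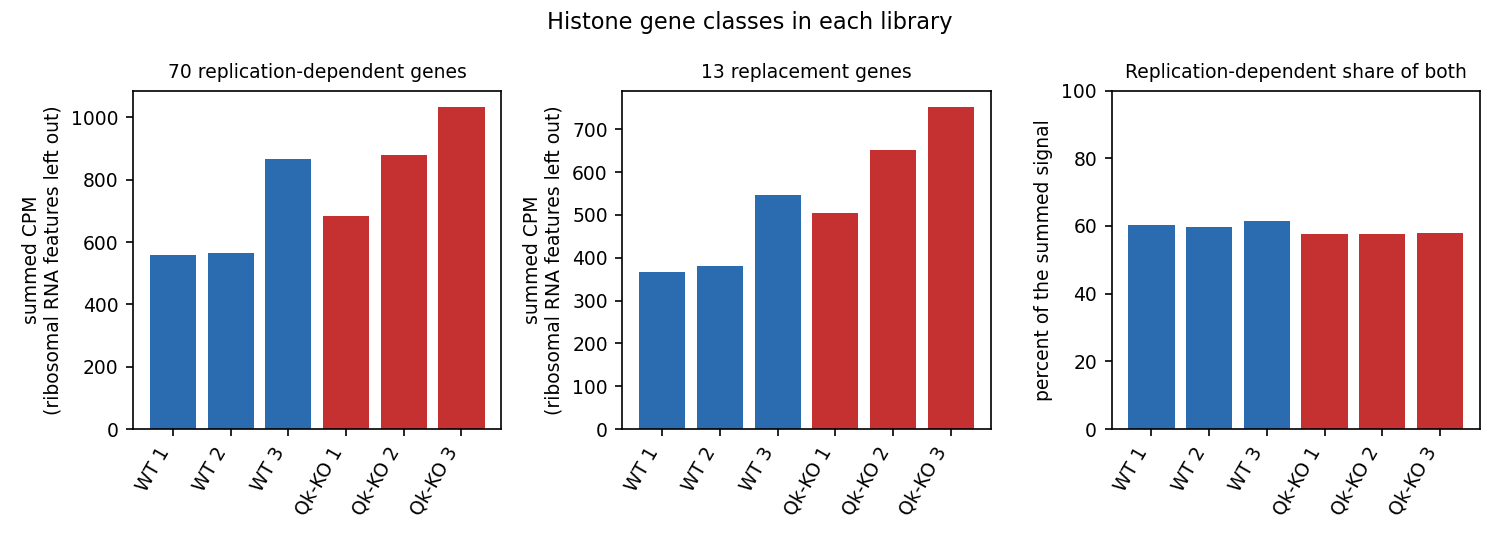
Summed CPM (ribosomal RNA features left out) of the 70 replication-dependent genes (left) and the 13 replacement genes (middle) with a read, and the replication-dependent share of their sum in percent (right), 1 bar per library (blue WT, red Qk-KO). The share is 59.7% to 61.3% in WT and 57.5% to 57.9% in Qk-KO, while each class sum in WT replicate 3 falls among the Qk-KO values.

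The 7 called members carried most of the rise of the replication-dependent sum. Together they had 198, 215 and 272 CPM in WT, against 321, 397 and 468 in Qk-KO, without overlap, and their normalized sum was 1.67 times the WT mean in Qk-KO, a ratio fixed in direction by how they were picked. The other 63 members with a read had 359, 350 and 594 CPM in WT, against 362, 485 and 567 in Qk-KO, with WT replicate 3 the highest of all, and a ratio of 1.05. By type the normalized ratio was 1.27 for H1, 1.32 for H2A, 1.39 for H2B, 1.19 for H4 and 1.02 for H3.

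WT replicate 3 stood apart in the replication-dependent class. It had the highest value of the 3 WT libraries in 62 of 67 tested members, against 30.1% of all features, and the highest of all 6 libraries in 47, against 15.1%. Its values lay a median of 0.76 above the mean of WT replicates 1 and 2 (all features: -0.02). In 22 members the gap was at least 1 log2 unit, as in 0.845% of all features. Among members with a mean normalized count of 200 or more, WT replicate 3 was highest of all 6 in 2 of 14. Below that count it was so in 45 of 53, with a median gap of 0.92 against 0.40. With over 50% of 50-base stretches shared it was so in 31 of 36 members, and in 16 of 31 others. Copies with shared sequence may draw on the same reads. WT replicate 3 was the highest WT library for 5 of 5 H1, 17 of 19 H2A, 15 of 18 H2B, 12 of 12 H3 and 13 of 13 H4 genes. The 12 H3 genes were also highest there of all 6 libraries, with a median gap of 1.04. Hist1h3e, the most abundant of them, read 7.27, 7.38 and 8.50 in WT, against 7.44, 7.75 and 8.24 in Qk-KO. Hist1h1b, the gene of linker histone H1.5, read 6.21, 6.56 and 7.84 in WT, against 6.17, 6.04 and 6.44 in Qk-KO, with WT replicate 3 apart from the other 5 libraries. Its change of -0.66 ± 0.38 was not called (limma adjusted p = 0.229).

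In the replacement class, WT replicate 3 was the highest WT library in 6 of 11 members and the highest of all in 1, with a median gap of 0.05. Among these, H3f3b had a gap of 1.42, H2afz of 0.60 and H2afx of 0.52, and H2afj of -0.26. The replication-dependent genes called higher in Qk-KO had small gaps too, from -0.14 in Hist3h2ba to 0.49 in Hist1h4i. A high WT replicate 3 raises the WT mean and spread, so a call favours small gaps by construction. Without WT replicate 3, 8 replication-dependent members were called and 3 replacement members, with H3f3b called and H3f3a not.

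Other genes moved with WT replicate 3. The oligodendrocyte precursor list (Pdgfra, Cspg4, Gpr17 and 7 more) lay a median of 1.06 above the other WT libraries (all features: -0.02). In it 9 of 10 members were highest there among WT, against 30.1% of all features. Its summed level was 1468, 1341 and 2066 CPM in WT, against 1591, 1671 and 1181 in Qk-KO. Pdgfra, the receptor that marks dividing precursors, read 10.24, 9.03 and 11.93 in WT. On the proliferation and S phase list 15 of 22 tested genes were highest there among WT, against the same 30.1%, and the median gap of the 22 was 0.41. The list summed to 189, 190 and 249 CPM in WT, against 197, 278 and 272 in Qk-KO. Mki67, a marker of cycling cells, read 7.10, 6.21 and 9.16 in WT, against 6.91, 7.50 and 6.91 in Qk-KO. Its gap of 2.50 was far above those of Cdk1 (0.19) and Cdk2 (-0.10) on the same list. WT replicate 3 was also the only WT library with a high value of the Y-linked gene Eif2s3y (8.90, against 4.09 and 4.11), as was Qk-KO replicate 2 in its group (9.15, against 3.97 and 2.92). The part of precursors, cycling cells and sex in the histone pattern was not tested.

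**Figure D3:**
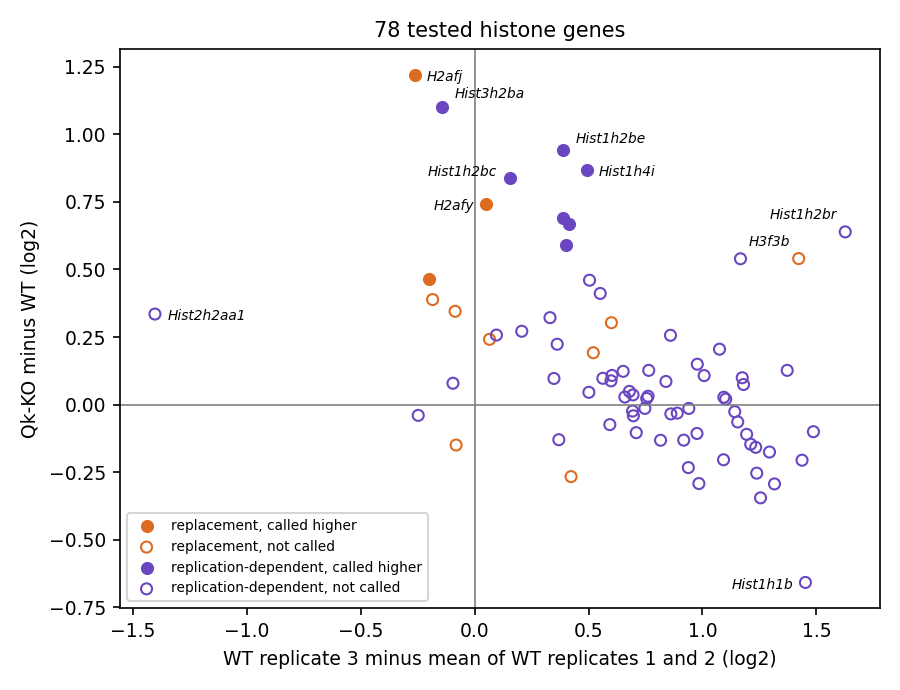
For each of the 78 tested histone genes, the gap between WT replicate 3 and the mean of WT replicates 1 and 2 (horizontal, log2) and the change between Qk-KO and WT (vertical, log2). Purple marks are replication-dependent and orange marks replacement genes, and filled marks are called higher in Qk-KO. Both axes use the WT values, so a high WT replicate 3 lowers the change by construction. Most purple marks lie right of 0, with a median gap of 0.76, and the called genes lie at gaps of up to 0.49.

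The replication-dependent members differed in how far the annotation follows their mRNA. In 24 tested members the annotated end lay at least 200 bases past the stop codon, and 6 of these were called higher (13.8% of all features were), with a median change of 0.21. In 40 the end lay nearer, 1 was called and the median was -0.03, and Hist1h2aj, Hist1h2al and Hist3h2bb-ps had no annotated stop codon and were not called. Members with a longer annotated 3′ end were also more abundant (median mean normalized count 188 against 79.8) and shared fewer of their 50-base stretches with other genes (median 24.7% against 69.3%). By abundance, 6 of 14 members whose mean normalized count was 200 or more were called and 1 of 53 below it. By shared sequence, 1 of 36 members with more than 50% of stretches shared was called and 6 of 31 others. These features go together, and which of them the calls follow was not tested.

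An AATAAA hexamer, the usual signal for polyadenylation, stood in the last 50 annotated bases of 13 tested replication-dependent members, of which 3 were called (Hist3h2ba, Hist3h2a and Hist1h1c), and was missing in 54, of which 4 were called. Of all genes with at least 50 bases after the stop codon 68.9% had it. The 54 members were not held to that minimum. They include members with fewer annotated bases or no annotated stop codon, so these counts and that share are unlike. The stem-loop motif was found in 45 tested members, 6 of them called, and not in 22, of which 1 was called. Over all tested features 13.8% were called higher. In many of the 22 the annotation ends at or soon after the stop codon, so a motif could not be seen. Hist1h4k, Hist1h1b, Hist1h2bn and Hist1h3i, for example, have 0 annotated bases after it. Hist2h2be, an H2B gene with 2192 annotated bases after the stop codon, had the hexamer and no stem-loop motif in them and was not called (-0.04, limma adjusted p = 0.883). Whether an mRNA was polyadenylated was not measured.

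**Figure D4:**
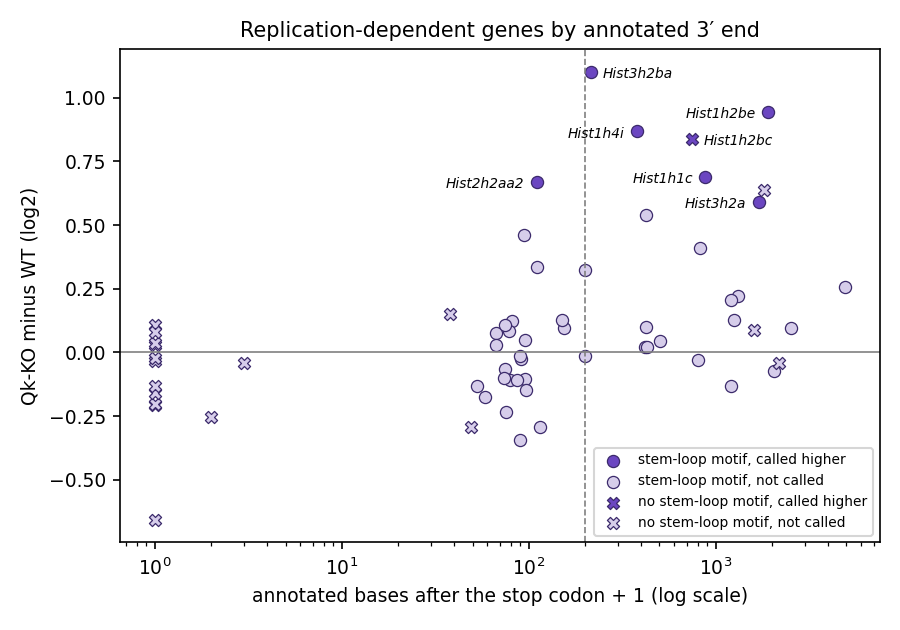
Change between Qk-KO and WT (log2) of the tested replication-dependent genes with an annotated stop codon, against the number of annotated bases after it plus 1 (log axis). Filled marks are called higher in Qk-KO, and the dashed line marks 200 bases. Crosses had no stem-loop motif in their annotated bases, which can be too few to hold it. Of the 7 called genes 6 lie at or right of the line and Hist2h2aa2 lies left of it.

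Promoters were compared as 300-base windows from RefSeq (GRCm38.p6), 250 bases before to 50 bases after the start, which matched 73 members. Motifs were searched on both strands as exact letters. CCAAT is a sequence that the factor NF-Y binds. The TATA box was searched as TATAAA. An octamer, ATTTGCAT, is bound by the product of Pou2f1. None of the 3 holds another. The neighbours Hist3h2ba and Hist3h2a are shown as genes that were both called higher, and H2afj as the replacement gene with the largest change. Capitals mark the motifs in either orientation. The windows are chr11:58948661-58948960 (plus strand), chr11:58954435-58954734 (plus strand) and chr6:136807998-136808297 (plus strand).
Hist3h2ba: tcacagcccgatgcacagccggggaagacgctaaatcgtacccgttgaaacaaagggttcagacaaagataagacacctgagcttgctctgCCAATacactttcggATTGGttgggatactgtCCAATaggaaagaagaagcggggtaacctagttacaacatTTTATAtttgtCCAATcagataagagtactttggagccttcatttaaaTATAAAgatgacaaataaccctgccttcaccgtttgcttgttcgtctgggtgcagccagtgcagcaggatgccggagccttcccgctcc
Hist3h2a: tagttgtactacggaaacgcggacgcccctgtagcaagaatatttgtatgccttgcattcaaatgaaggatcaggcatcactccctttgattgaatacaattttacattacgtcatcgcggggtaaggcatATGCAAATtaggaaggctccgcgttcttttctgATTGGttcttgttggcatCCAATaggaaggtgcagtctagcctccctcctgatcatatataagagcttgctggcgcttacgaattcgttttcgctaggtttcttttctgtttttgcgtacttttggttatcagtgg
H2afj: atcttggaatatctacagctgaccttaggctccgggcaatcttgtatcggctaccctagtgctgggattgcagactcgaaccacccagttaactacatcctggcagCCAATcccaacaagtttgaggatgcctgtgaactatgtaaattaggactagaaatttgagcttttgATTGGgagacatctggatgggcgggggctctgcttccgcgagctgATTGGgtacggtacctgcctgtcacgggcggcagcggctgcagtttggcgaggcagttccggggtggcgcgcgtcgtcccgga

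Hist3h2ba has 4 CCAAT and 2 TATAAA matches, Hist3h2a has 2 CCAAT matches and the octamer, and H2afj has 3 CCAAT matches alone. CCAAT occurred in 54 of 63 replication-dependent windows (85.7%) and in 8 of 11 replacement windows, against 37.4% of all 32851 windows. Every H1, H2A, H2B and H3 window had it, while 3 of 12 H4 windows did. TATAAA was in 55.6% of replication-dependent windows, in 1 of 11 replacement windows and in 13.6% of all. The octamer was in 22.2% of replication-dependent windows, namely 7 of 18 H2A and 7 of 17 H2B windows, and in 1.74% of all. Some H2A and H2B windows overlap, so the same match can be counted in both. Those of Hist1h2ae (23571171 to 23571470) and Hist1h2bg (23571150 to 23571449) are an example. A match is a run of letters and not a measured site.

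Genes that make or handle histone mRNA were described from a list of 25. Of the 22 tested, 3 were called higher, a share near the 13.8% of all features, and 1 lower, with a median change of 0.18. Eri1, the exonuclease that trims the histone stem-loop, read 8.69, 8.44 and 8.48 in WT, against 8.96, 9.14 and 8.94 in Qk-KO (0.48 ± 0.13, limma adjusted p = 0.029). Cpsf2, a subunit of the cleavage complex, had a change of 0.44 ± 0.11 (adjusted p = 0.0219). The call was lost in 8 of 16 alternatives for Eri1 and in 6 for Cpsf2, both times in Qk-KO replicate 1 alone (adjusted p = 0.194 and 0.107), with a term for library type and with scaling by library size alone. Pou2f1, whose protein binds the octamer, read 10.37, 10.35 and 10.20 in WT, against 9.81, 9.29 and 9.21 in Qk-KO. It fell by 0.87 (SE 0.17, adjusted p = 0.0077). This call was lost in Qk-KO replicate 1 alone and with library type in the model, and the change turned to 0.18 (adjusted p = 0.769) when libraries were scaled by size alone.

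Of 33 tested histone chaperones and exchange factors, 5 were called higher, a share near the 13.8% of all features, and 1 lower, with a median of 0.15. Ssrp1, a subunit of the FACT complex, read 10.28, 10.37 and 10.13 in WT, against 10.81, 10.87 and 10.91 in Qk-KO, with a change of 0.60 ± 0.11 (limma adjusted p = 0.0056) that was called in all 16 alternatives. Npm1, nucleophosmin, had a change of 0.60 ± 0.12 (adjusted p = 0.0095), not called in Qk-KO replicate 1 alone or with library type in the model. Srcap, the ATPase that exchanges H2A for H2A.Z, read 12.24, 12.10 and 12.19 in WT, against 11.83, 10.01 and 9.92 in Qk-KO. Its fall of 1.59 on the log2 scale (SE 0.45, adjusted p = 0.0327) lay mostly in the 2 libraries with little ribosomal RNA. The call was lost in 10 of 16 alternatives, among them Qk-KO replicate 1 alone (-0.34, adjusted p = 0.133) and the comparison in the authors' deposited table (adjusted p = 0.113).

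On the proliferation and S phase list 3 of 22 tested genes were called higher, again near the 13.8% of all features, and none lower, with a median of 0.07. They were Pcna, the DNA polymerase clamp (0.44 ± 0.13, limma adjusted p = 0.0388), the transcription factor gene E2f2 (0.60 ± 0.18, adjusted p = 0.037) and the replication initiation gene Cdc45 (0.52 ± 0.16, adjusted p = 0.0486). Each of these calls was lost in 9 or 10 of the alternatives run. Other RNAs without a poly(A) tail were called higher in 6 of 18 tested members and lower in none, with a median of 0.55. Their summed level was 17993, 23234 and 20816 CPM in WT, against 25966, 41342 and 41610 in Qk-KO, so Qk-KO replicate 1 was nearest to WT. Rpph1, the RNA of ribonuclease P, had a change of 1.13 ± 0.30 (adjusted p = 0.0242), Rn7s6, a signal recognition particle RNA, of 0.94 ± 0.19 (adjusted p = 0.0083) and Rnu2-10, a U2 spliceosomal RNA, of 0.86 ± 0.19 (adjusted p = 0.013). None of the 3 was called in Qk-KO replicate 1 alone. The part of the library content in these values and in the histone genes was not tested beyond fits that estimate Qk-KO replicate 1 against WT. These were that contrast and the fit with library type in the model, which differ only in the spread used. They are therefore not separate checks. With library type in the model Hist3h2ba, H2afj and H2afy were the members still called.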

How the data were processed

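RNA-seq of 3 WT and 3 Qk-KO libraries was used. The submitters' processing notes name FastQC, TopHat2 2.0.14, featureCounts, DESeq2 and build mm10. Annotation release, strandedness and read length are absent (not given in the sources used here). Deposited per-library values are regularized log2 values, scaled by the authors' size factors. The authors' mean normalized count is a signal averaged over the 6 libraries. Per the file headers, their comparison gives a log2 fold change with its error, a Wald score and raw and adjusted p-values. The values are not counts, so limma 3.58.1 (R 4.3.3, mean-variance trend, two-sided) was fitted to the log2 values with a genotype term, with no pseudocount, over features whose mean normalized count reached 20, and p-values were Benjamini-Hochberg adjusted over all of them. The fit was tested on simulated data. Size factors were read from the steps of the lowest means, where all 3079 features checked were whole reads within 1e-06, and depths (23600000 to 78900000 reads) were estimated from back-transformed values. CPM leaves out ribosomal RNA features. Sequence features were read from GENCODE M21 and RefSeq tables of the same build. All 88 members were found in GENCODE M21, 2 of them by symbol. Planned searches past the annotated transcript ends and of protein identity were not done here.

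Members, lists and tests were chosen with earlier results of these data known, and the comparisons by 3′ end length, abundance and shared 50-base stretches were chosen after the values were seen. Every tested member is named. Values in every library are given for the 8 most abundant tested members of each class and every called member with a change of at least 1 log2 unit, and for further members chosen after their values were seen. From each list up to 3 called genes, or the 2 most abundant, are named, and Qk. Marker lists are given as sums, and Pdgfra, Mki67 and Eif2s3y were chosen after their values were seen. Alternatives changed the scaling, filter, variance model, model terms and libraries, and the class ratio was recomputed over other member sets.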

Additional observations from a re-analysis of the deposited data

How the results depend on the processing

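H2afj, H2afy and Hist3h2ba were called in each of 16 alternatives and Hist1h2bc in 15, lost when library type was a term (adjusted p = 0.0523). With library type in the model the counts of calls were 2258 features and 1 replication-dependent member, and in Qk-KO replicate 1 alone against WT 2355 features and 2 such members. Scaling by library size alone called 2377 features, 2324 of them higher, with a median change of 0.90. There Pou2f1 had a change of 0.18 (adjusted p = 0.769) and the endothelial marker Kdr of 0.059 (adjusted p = 0.926), with opposite signs to the reported ones. With no filter on low values 4 replication-dependent members were called. Leaving out each library in turn gave 2370 to 5633 features, 3 to 8 replication-dependent members (3 when replicate 1 or 2 of WT, or 2 of Qk-KO, was absent) and class ratio differences of -0.19 to -0.14. Leaving out WT replicate 1 gave 2663 features, WT replicate 3 gave 2568 and Qk-KO replicate 2 gave 2370. Replacement calls numbered 2 to 4 in these settings. The class ratio difference was -0.018 with class medians, -0.28 without the most abundant member of each class and, in settings chosen after seeing the data, -0.12 over members with at most 50% of stretches shared and -0.30 without the members called higher. The causes were not tested. Single-gene values were followed over the tested members, Qk and genes picked from each list, marker lists included. Across settings 1584 values kept their side of the threshold, 129 lost the call and 11 gained it. In 2 called genes, Pou2f1 and Kdr, the sign turned. Uncalled values that changed sign are counted as kept, such as H1fx (-0.19, but 0.53 in Qk-KO replicate 1 alone). Same-numbered libraries share only a number: the correlations of their deviations were 0.10, 0.005 and 0.08, and not every library correlated best with its own number. With the replicate block 4345 features, 7 replication-dependent and 3 replacement members were called, the class ratio difference was -0.17, and the call of Hist1h4i was lost. Of the single-gene values, weakly expressed members rest on 8.94 to 12.3 reads at the minimum in the 4 shallower libraries, and differences there can be understated.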
